A study of Mus musculus with 15 samples.

Results

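The 10 genes examined here were Spic, Zmat4, Pga5, Pgc, A2m, Fcgr2b, Adgrd1, Adamtsl1, Npy and Cd2. They were picked because their signal was much lower when the kinase Map3k3 was switched on in mouse embryonic stem cells that lack the gene called Nat1 in the labels. All 10 were on the array, with 13 probes between them, and all 10 were among the 14441 genes with a measurable signal. They also belong to the 642 genes (4.45%) called lower with Map3k3 against both of its controls. The falls with Map3k3 are therefore the basis of the choice and are described without a test. The difference between null and wild-type cells rests on arrays that the choice did not use, and it was tested. The choice favours high signal in the controls, which are also null cells. It can thus favour genes higher in null than in wild-type cells. A2m, not measurable in wild-type cells, is only described there.

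Gene expression was measured in mouse embryonic stem cells on single-colour Agilent microarrays, with 5 groups of 3 arrays. Map3k3 cells with Dox were null cells carrying a tet-inducible Map3k3 transgene, grown with doxycycline (Dox), the drug that switches the transgene on. Map3k3 cells without Dox were the same kind of cell grown without the drug. EGFP cells with Dox were null cells carrying a tet-inducible transgene for a green fluorescent protein, also grown with the drug. Null cells carried the Nat1 deficiency and no transgene, and wild-type cells carried neither. All groups but the wild type thus lacked Nat1, which is not an acetyltransferase here but an older name of Eif4g2, whose protein resembles the translation initiation factor eIF4G. All cells were kept in embryonic stem cell medium on gelatin. The dose and duration of Dox and the number of clones behind each line are not given in these sources. Separate cultures are not stated for the 3 samples of any group, so p-values below cover the spread between these samples, which may be technical.

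Map3k3, also known as MEKK3, is a kinase at the top of the cascades that lead to the MAP kinases ERK5, p38 and JNK. The 10 genes do not form a pathway. Spic encodes an Ets-family transcription factor that in mice is known for the development of red pulp macrophages of the spleen, and Zmat4 encodes a zinc finger protein. Pga5 and Pgc encode the stomach proenzymes pepsinogen A and pepsinogen C, and A2m encodes alpha-2-macroglobulin, a secreted trap for proteases. Adamtsl1 encodes a secreted matrix protein related to the ADAMTS proteases but without a protease domain, and Npy encodes the secreted neuropeptide Y. The other 3 encode cell surface proteins. Fcgr2b is the inhibitory Fc receptor for IgG on B cells and myeloid cells, Adgrd1 is an adhesion G protein-coupled receptor, and Cd2 is an adhesion molecule of T and natural killer cells.

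Because the genes were lower together, the sequences around their start sites were compared. A promoter window from 250 bases before to 50 bases after the start was available from RefSeq (GRCm38.p6) for 4 of the 10 genes and is printed for each on the gene's own strand. The windows are chr10:88682974-88683273 on the minus strand for Spic, chr17:47726592-47726891 on the plus strand for Pgc, chr6:49822460-49822759 on the plus strand for Npy and chr1:170976022-170976321 on the minus strand for Fcgr2b. Capitals mark matches, on either strand, to any of 6 short motifs named after the sequences.
Spic: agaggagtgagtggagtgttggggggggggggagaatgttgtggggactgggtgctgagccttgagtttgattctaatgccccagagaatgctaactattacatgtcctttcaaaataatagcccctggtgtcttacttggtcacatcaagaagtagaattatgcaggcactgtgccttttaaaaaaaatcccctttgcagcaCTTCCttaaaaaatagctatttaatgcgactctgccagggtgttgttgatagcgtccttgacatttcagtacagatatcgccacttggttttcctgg
Pgc: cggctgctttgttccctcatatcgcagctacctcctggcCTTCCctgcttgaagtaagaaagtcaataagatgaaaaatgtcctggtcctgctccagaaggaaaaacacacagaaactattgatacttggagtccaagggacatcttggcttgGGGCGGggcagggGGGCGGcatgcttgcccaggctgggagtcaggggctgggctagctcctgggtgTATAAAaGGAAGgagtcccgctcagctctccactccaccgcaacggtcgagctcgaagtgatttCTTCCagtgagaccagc
Npy: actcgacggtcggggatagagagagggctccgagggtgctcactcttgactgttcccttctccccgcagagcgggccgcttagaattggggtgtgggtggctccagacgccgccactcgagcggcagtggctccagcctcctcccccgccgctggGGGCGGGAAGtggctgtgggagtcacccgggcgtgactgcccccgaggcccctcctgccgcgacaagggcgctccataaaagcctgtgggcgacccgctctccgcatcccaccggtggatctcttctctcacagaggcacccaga
Fcgr2b: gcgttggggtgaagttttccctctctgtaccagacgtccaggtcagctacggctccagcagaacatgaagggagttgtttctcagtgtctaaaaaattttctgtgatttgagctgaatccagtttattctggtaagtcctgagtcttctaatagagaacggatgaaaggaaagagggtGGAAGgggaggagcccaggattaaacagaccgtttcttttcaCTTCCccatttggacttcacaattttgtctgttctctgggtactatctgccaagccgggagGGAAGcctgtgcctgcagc
The 4 windows differ in base composition. G and C make up 45.0% of the Spic window, 55.0% of the Pgc window, 68.0% of the Npy window and 48.0% of the Fcgr2b window, against a median of 52.7% over 32851 windows of all genes. The windows hold 3, 9, 24 and 6 CpG dinucleotides in the same order, with a median of 7 over all windows. The core of Ets sites, GGAAG, was in all 4 windows and in 71.4% of all windows. The GC box GGGCGG was in the Npy and Pgc windows, 2 of 4, and in 35.7% of all windows. In the Npy window it overlaps the GGAAG match. The TATA box TATAAA was in 1 window, that of Pgc, and in 13.6% of all. No window held the letters TGANTCA (AP-1), ATGCAAAT (octamer) or TTCNNNGAA (STAT), which occur in 7.81%, 1.74% and 8.3% of all windows. No motif was thus present in all 4 windows other than one that most promoters hold.

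Levels below are log2 of the processed signal minus the 75th percentile of the same array, so that 0 is the brightness of the probe at that percentile and a difference of 1 is a 2-fold difference. Across the arrays 42.7 to 53.9% of probes were well above background by the flags of the scanner software, with the lowest share on array 2 of Map3k3 cells with Dox. Arrays in row 1 of the slides had 50.7 to 53.9% and arrays in row 2 had 42.7 to 49.1%. Eif4g2 fell 6.05-fold in null against wild-type cells (log2 difference -2.60, SE 0.14, limma adjusted p = 2.24e-08). The Map3k3 probe differed by only 0.18 between Map3k3 cells with and without Dox (adjusted p = 0.236) and by 0.27 against EGFP cells (adjusted p = 0.0873). Since the sources do not state whether this probe detects transgene RNA, it is no check of the induction. The 6 stem cell marker genes listed, among them Pou5f1 and Sox2, were well above background on every array of every group.

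With Map3k3 switched on, the signal of 8 of the 10 genes left the measurable range on at least 1 array. Of the 30 measurements in Map3k3 cells with Dox, 11 were well above background, against 30 of 30 in Map3k3 cells without Dox and 30 of 30 in EGFP cells with Dox. Over all probes the shares were 51.9, 42.7 and 47.8% with Map3k3, 53.0, 52.5 and 50.8% without Dox and 47.0, 49.1 and 50.7% with EGFP. All 3 arrays without Dox lay in row 1, while arrays 2 and 3 with Map3k3 and arrays 1 and 2 with EGFP lay in row 2. The part of the slide row in the lower detection was not tested. Spic and Zmat4 were measurable on all 3 arrays with Map3k3. Pga5, Fcgr2b, Adgrd1 and Cd2 were measurable on some of them, and Pgc, A2m, Adamtsl1 and Npy on none. Where the weaker group had any array at background its fold is a bound, computed against the weakest signal still well above background on the same array or the gene's own signal where that was higher, and is given with the words at least. The arrays of Map3k3 cells with Dox did not overlap those without Dox in 9 of 10 genes, where 50.1% of all genes do not overlap, or those of EGFP cells in 10 of 10, where the share is 49.3%. Calls for lower signal were made in 5.59% of all genes against cells without Dox and in 5.67% against EGFP cells. All 10 genes are in both sets because they were chosen from them. The 2 comparisons share the arrays of Map3k3 cells with Dox, so their values are given side by side and not as independent evidence.

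**Figure D1:**
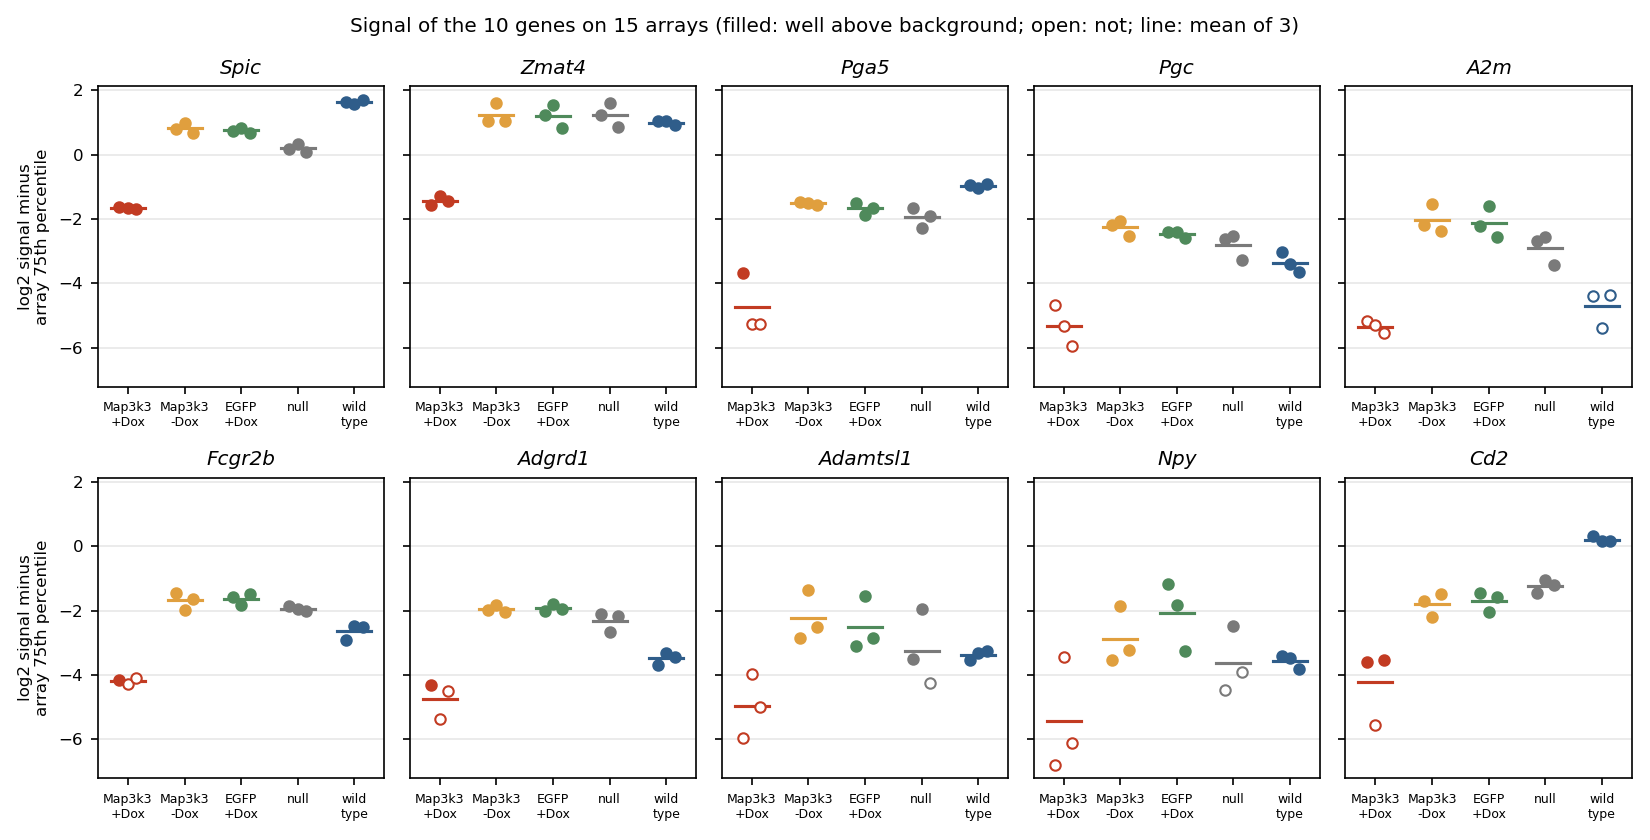
Each panel plots the log2 signal of 1 gene minus the array's 75th percentile (vertical axis) on the 3 arrays of each of the 5 groups (horizontal axis), with filled points well above background, open points not, and a line at the mean of 3. In Map3k3 cells with Dox, 11 of 30 points are filled, against 30 of 30 in Map3k3 cells without Dox and in EGFP cells with Dox, and Npy is the 1 gene whose arrays with Map3k3 overlap those of Map3k3 cells without Dox.

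Spic was 1 of the 2 genes measured on every array. Its level was -1.61, -1.66 and -1.69 in Map3k3 cells with Dox, against 0.80, 0.99 and 0.68 without Dox and 0.74, 0.83 and 0.69 in EGFP cells with Dox. In null cells it was 0.18, 0.35 and 0.09, and in wild-type cells 1.63, 1.58 and 1.71. The 3 arrays with Map3k3 lay close together and below all others. Spic was 5.57-fold lower with Map3k3 than without Dox (log2 difference -2.48, SE 0.088) and 5.32-fold lower than with EGFP (-2.41). The 5 groups stood in the order wild type, Map3k3 without Dox, EGFP with Dox, null and Map3k3 with Dox, and the arrays of neighbouring groups overlapped only between the 2 transgenic control groups.

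Zmat4 was the other gene measured on every array, and its arrays in the groups other than Map3k3 with Dox overlapped. It read -1.58, -1.29 and -1.44 in Map3k3 cells with Dox, against 1.05, 1.60 and 1.05 without Dox and 1.23, 1.53 and 0.83 in EGFP cells with Dox. Null cells gave 1.23, 1.61 and 0.87, and wild-type cells 1.05, 1.04 and 0.91. The arrays of the other 4 groups overlapped one another and lay well above those with Map3k3. Zmat4 was 6.35-fold lower with Map3k3 than without Dox (-2.67, SE 0.21) and 6.19-fold lower than with EGFP (-2.63), the largest folds measured on both sides among the 10 genes.

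The pepsinogen genes were both low in level and lower with Map3k3. Pga5 read -3.68, -5.26 and -5.27 in Map3k3 cells with Dox, of which only the first was well above background, against -1.46, -1.50 and -1.57 without Dox and -1.49, -1.87 and -1.65 with EGFP. In null cells it read -1.64, -2.29 and -1.89, and in wild-type cells -0.95, -1.03 and -0.90. Wild-type cells thus had the highest signal and Map3k3 cells with Dox the lowest, and the arrays with Map3k3 overlapped those of no other group. Pga5 was at least 4.29-fold lower with Map3k3 than without Dox and at least 3.84-fold lower than with EGFP.

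Pgc has 2 probes on the array, and they disagreed. On the probe that stood for the gene the level was -4.68, -5.32 and -5.96 in Map3k3 cells with Dox, none well above background, against -2.18, -2.07 and -2.54 without Dox and -2.40, -2.40 and -2.59 with EGFP. The same probe read -2.62, -2.53 and -3.26 in null cells and -3.02, -3.41 and -3.63 in wild-type cells. It was at least 3.13-fold lower with Map3k3 than without Dox and at least 2.71-fold lower than with EGFP. The other probe read -3.19, -3.70 and -3.56 in Map3k3 cells with Dox, against -3.05, -2.81 and -2.87 without Dox and -3.14, -3.51 and -3.06 with EGFP, differences of only -0.57 and -0.25. The low signal of Pgc with Map3k3 thus rests on 1 probe of 2. Which transcripts each probe matches was not tested.

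A2m was measurable in the null background only where Map3k3 was off. Its level was -5.18, -5.31 and -5.55 in Map3k3 cells with Dox, none well above background, against -2.19, -1.53 and -2.36 without Dox and -2.23, -1.61 and -2.55 with EGFP. Null cells gave -2.69, -2.56 and -3.44, all well above background, and wild-type cells -4.39, -5.39 and -4.37, none well above background. A2m was the 1 gene of the 10 with no measurable signal in wild-type cells. It was at least 3.68-fold lower with Map3k3 than without Dox and at least 3.43-fold lower than with EGFP.

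The secreted factors Adamtsl1 and Npy had the largest standard errors of the 10 genes, 0.65 and 0.84. Adamtsl1 read -5.97, -3.97 and -5.00 in Map3k3 cells with Dox, none well above background, against -2.84, -1.36 and -2.51 without Dox and -3.09, -1.56 and -2.85 with EGFP. In null cells it read -3.52, -1.95 and -4.26, the last not well above background, and in wild-type cells -3.54, -3.33 and -3.25. A second Adamtsl1 probe was not well above background on any array. Adamtsl1 was at least 3.17-fold lower with Map3k3 than without Dox (log2 difference -2.74) and at least 2.65-fold lower than with EGFP.

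Npy gave -6.79, -3.43 and -6.12 in Map3k3 cells with Dox, none well above background, against -3.54, -1.85 and -3.23 without Dox and -1.16, -1.84 and -3.27 with EGFP. Its level was -4.47, -2.49 and -3.92 in null cells, of which only the second was well above background, and -3.41, -3.47 and -3.82 in wild-type cells. Array 2 with Map3k3 was higher than array 1 without Dox, so the groups overlapped in this gene. Npy was at least 2.05-fold lower with Map3k3 than without Dox (log2 difference -2.58) and at least 3.53-fold lower than with EGFP (-3.36).

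The 3 surface proteins had close values between the control groups. Fcgr2b, measured with 10 spots per array, read -4.17, -4.30 and -4.11 in Map3k3 cells with Dox, of which only the first was well above background, against -1.45, -1.98 and -1.64 without Dox and -1.58, -1.84 and -1.47 with EGFP. It read -1.85, -1.95 and -2.02 in null cells and -2.91, -2.47 and -2.50 in wild-type cells. Fcgr2b was at least 4.24-fold lower with Map3k3 than without Dox and at least 4.41-fold lower than with EGFP, with no overlap of Map3k3 cells with Dox and any other group.

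Adgrd1 read -4.33, -5.38 and -4.51 in Map3k3 cells with Dox, of which only the first was well above background, against -1.97, -1.81 and -2.05 without Dox and -2.0, -1.79 and -1.97 with EGFP. Null cells had -2.11, -2.68 and -2.17, and wild-type cells -3.69, -3.32 and -3.43. The gene was at least 3.68-fold lower with Map3k3 than without Dox and at least 3.75-fold lower than with EGFP. Wild-type cells lay between Map3k3 cells with Dox and the other null cells.

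Cd2 was brightest in wild-type cells. On the probe that stood for the gene it read -3.60, -5.56 and -3.55 in Map3k3 cells with Dox, of which the second was not well above background, against -1.69, -2.19 and -1.48 without Dox and -1.46, -2.05 and -1.59 with EGFP. Its level was -1.45, -1.06 and -1.20 in null cells and 0.30, 0.16 and 0.16 in wild-type cells. Cd2 was at least 3.21-fold lower with Map3k3 than without Dox and at least 3.42-fold lower than with EGFP. A second Cd2 probe was well above background in wild-type cells alone, at -3.50, -3.77 and -3.72, and so gives no value for the Map3k3 comparisons.

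Near the limit of the choice, genes were ordered by the mean of the 2 log2 differences among the 642 genes called lower in both. The 10 genes lie within the first 14, together with the clone D630039A03Rik, Tmem211, Serpina3i and Acss1. Spic was the last of the 10 at -2.48 and -2.41, and Acss1, just before it, differed by -2.56 and -2.32. After Spic came D430019H16Rik (-2.61 and -2.20), Spink1 (-2.18 and -2.52) and Sapcd1 (-2.27 and -2.20). There is no gap in the differences at the limit.

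The 10 genes did not share a direction between null and wild-type cells, a comparison whose arrays the choice did not use. In limma, 3 were called higher in null cells, 3 were called lower and 4 were not called, where 17.3% of all genes were called higher, 20.5% lower and 37.9% either way. A2m was at least 2.97-fold higher in null cells (log2 difference 1.82, SE 0.34). It was not measurable in wild-type cells and passed the filter only through groups of null background. Its call is therefore a description and not a test. Adgrd1 was 2.23-fold higher (1.16, SE 0.24, adjusted p = 0.00101) and Fcgr2b 1.61-fold higher (0.69, SE 0.15, adjusted p = 0.00169). In these 3 genes every null array lay above every wild-type array.

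Spic, Cd2 and Pga5 went the other way. Spic fell 2.71-fold in null against wild-type cells (-1.44, SE 0.088, adjusted p = 6.16e-08). Cd2 fell 2.72-fold (-1.44, SE 0.42, adjusted p = 0.0105), and Pga5 fell 1.98-fold (-0.98, SE 0.34, adjusted p = 0.0227). In these 3 genes every null array lay below every wild-type array, which makes 6 of 10 genes without overlap, against 71.9% of all genes. Zmat4 (0.24, adjusted p = 0.353), Pgc (0.55, adjusted p = 0.117), Adamtsl1 (0.13, adjusted p = 0.874) and Npy (-0.06, adjusted p = 0.955) were not called in limma. The labels do not name the parent line of the null cells, and null arrays lay in row 2 of the slide and wild-type arrays in row 1. With slide row as a block in the fit, Pga5 (-0.17, adjusted p = 0.737) and Cd2 (-0.88, adjusted p = 0.253) were no longer called lower. No row held both null and wild-type arrays, so the row term came only from Map3k3 cells with Dox and EGFP cells with Dox. In the former, the row 2 readings of Pga5 (-5.26 and -5.27) and 1 of Cd2 (-5.56) were not well above background. This fit therefore cannot separate row from genotype. Pga5 also lost its call without array 2 of the null cells (adjusted p = 0.0826) and without array 1 (0.0533) or array 3 (0.0580) of the wild type. Without array 1 of the wild type, Fcgr2b came under the 1.5-fold minimum, at 0.54, as it did with normexp background correction, at 0.48. Without array 3 of the null cells Pgc was called higher, at 0.78 (adjusted p = 0.0442). Pga5 also lost its call with quantile normalization (adjusted p = 0.0996) and with the array median in place of the 75th percentile (-0.84, adjusted p = 0.0537), and Cd2 with quantile normalization (adjusted p = 0.0563).

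Among the 642 genes called lower with Map3k3 against both controls, 256 (39.9%) were called higher in null than in wild-type cells, 110 (17.1%) were called lower and 276 were not called. Over all genes 17.3% were called higher and 20.5% lower. The 642 genes were selected for higher signal in controls of null background, which favours genes high in null cells. Their shares therefore support nothing about null against wild-type cells. The 10 genes, with 3, 3 and 4, have a share called higher of 30% and a share called lower of 30%. At this number of genes the shares are descriptions only.

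**Figure D2:**
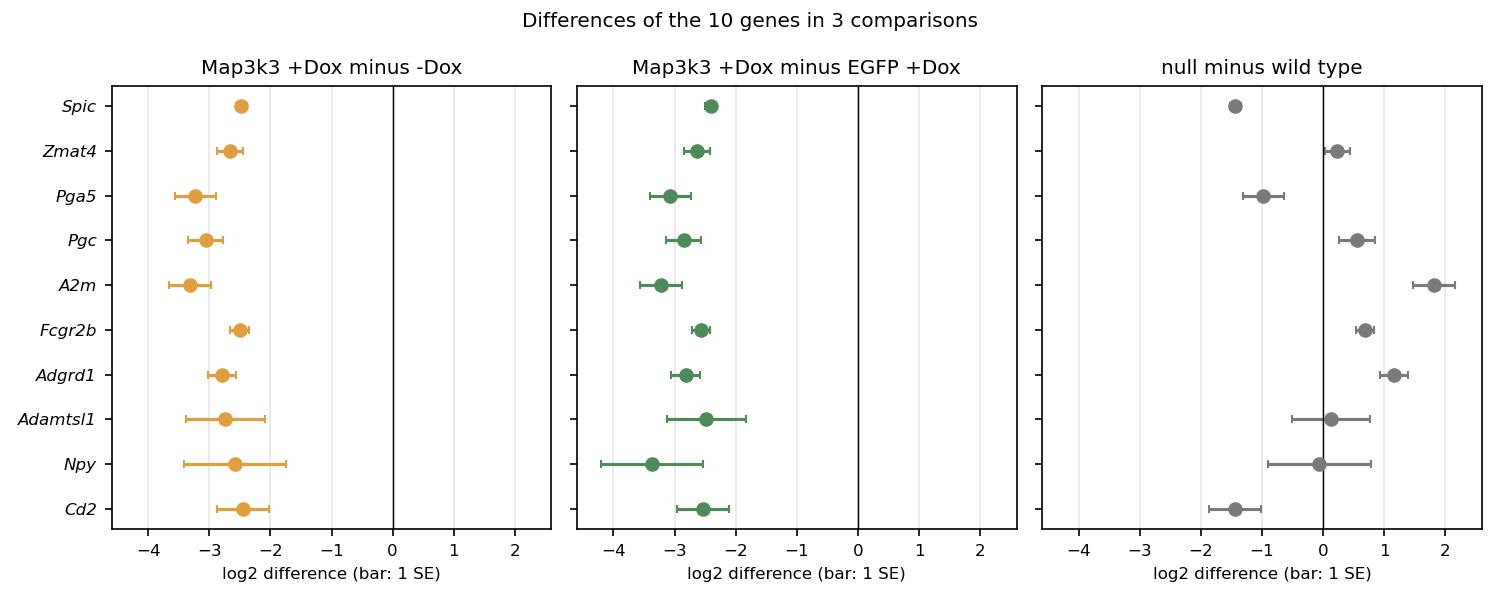
The log2 difference of each of the 10 genes (horizontal axis, bars 1 SE of the limma fit) is plotted for Map3k3 cells with Dox minus without Dox, Map3k3 minus EGFP cells, both with Dox, and null minus wild-type cells. All points of the first 2 panels lie between -3.36 and -2.41, because the genes were chosen for it, while those of the third spread from -1.44 to 1.82.

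Set beside wild-type cells, Map3k3 cells with Dox were lower in the 9 genes for which a fold could be given. The choice favours low values in Map3k3 cells with Dox, and the share of all genes lower in this comparison was not counted. Cd2 was at least 12.8-fold lower in Map3k3 cells with Dox than in wild-type cells, Spic 9.84-fold, Pga5 at least 6.27-fold and Zmat4 5.41-fold. Fcgr2b was at least 2.21-fold lower, and Pgc, Adamtsl1, Adgrd1 and Npy were at least 1.46-fold, 1.45-fold, 1.27-fold and 1.26-fold lower. A2m, the gene furthest above wild type in null cells, was measurable in neither group. The arrays of the groups overlapped in A2m and Npy. Fcgr2b and Adgrd1, higher in null than in wild-type cells, thus lay under wild type with Map3k3. Spic, Cd2 and Pga5, lower in null cells, lay still further under wild type with Map3k3. These differences share arrays with the choice and carry no test.

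The transgenic lines without active Map3k3 were not identical to null cells in these genes. Spic was higher by 0.62 in Map3k3 cells without Dox than in null cells and by 0.55 in EGFP cells with Dox, with no overlap of arrays in either case. Npy was higher by 0.75 and 1.54 and Adamtsl1 by 1.0 and 0.74, with overlapping arrays in both genes. A2m was higher by 0.87 and 0.77 and Adgrd1 by 0.38 and 0.40, while Cd2 differed by -0.55 and -0.46. Zmat4 differed by -0.0035 and -0.04. The 3 arrays of Map3k3 cells without Dox lay in row 1 of 1 slide and the 3 of null cells in row 2 of the other. Slide, row and line thus cannot be told apart there. Both differences are taken against the same null arrays. The choice used the arrays of Map3k3 cells without Dox and of EGFP cells, and it favours high values in them. Differences of these groups from null cells therefore carry no test. The share of all genes without overlap in these comparisons was not counted.

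Part of the spread among arrays followed the replicate number in the labels. In Zmat4 and Adamtsl1 the array numbered 2 was the highest of its group in all 4 groups of null background, and in Spic, A2m and Npy in 3 of 4. In Pga5 and Fcgr2b it was the highest in none. Over all genes 14.9% had the array numbered 2 highest in all 4 groups. For Adamtsl1 the gap to the next array was 1.03 in Map3k3 cells with Dox, 1.15 without Dox, 1.29 with EGFP and 1.57 in null cells. In wild-type cells the array numbered 2 was not the highest in either gene. The labels do not say what the number stands for.

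**Figure D3:**
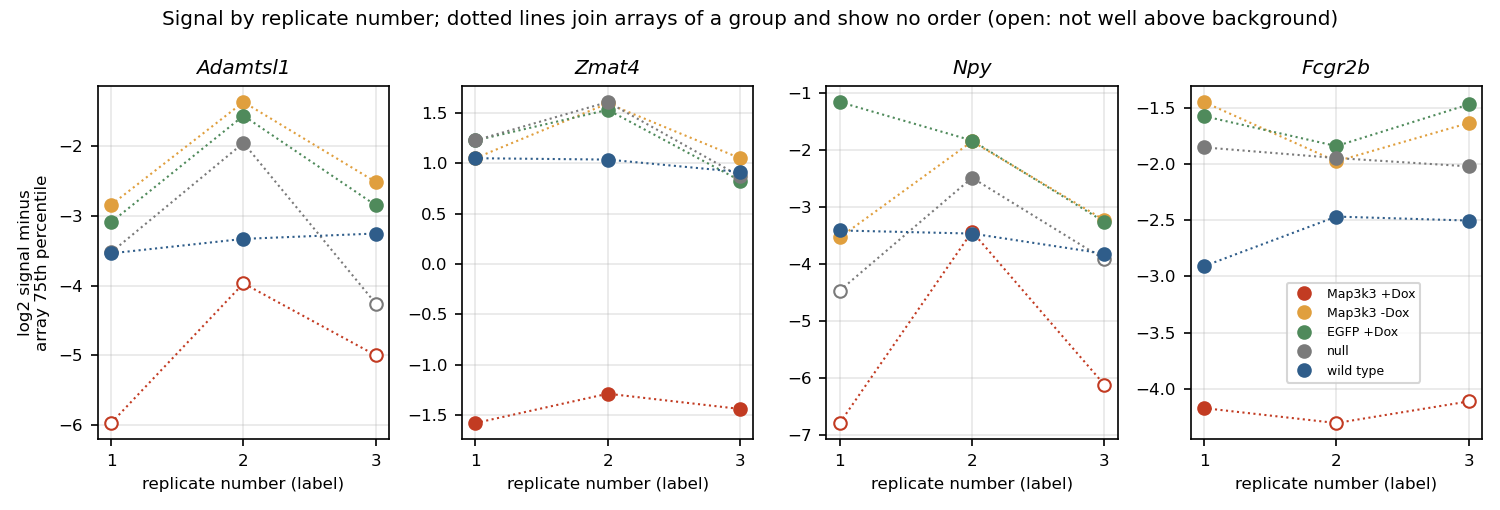
Log2 signal minus the array's 75th percentile (vertical axis) is plotted against the replicate number of the labels (horizontal axis) for Adamtsl1, Zmat4, Npy and Fcgr2b, with open points not well above background and dotted lines that join a group but show no order. The array numbered 2 is highest in all 4 null-background groups for Adamtsl1 and Zmat4 and in none for Fcgr2b.

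Relatives of the 10 genes, listed by family, were called in both directions. Of 133 listed 130 were on the array and 69 were measured. In limma, 8 were higher and 9 lower in Map3k3 cells with Dox than without Dox, with 12.3% of all genes called higher and 5.59% lower. Against EGFP cells 9 were higher and 9 lower, with 12.4% and 5.67% of all genes. The median difference of the relatives was 0.02 against cells without Dox and -0.02 against EGFP cells, beside -0.07 and -0.09 for all genes.

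Of 18 measured Ets-family genes besides Spic, 3 rose with Map3k3 and 1 fell against both controls. Ets1, a factor of lymphoid and endothelial cells, read -1.37 on average in Map3k3 cells with Dox, against -4.18 without Dox, a 7.03-fold rise (log2 difference 2.81, SE 0.20, limma adjusted p = 8.03e-07). Elk3, a partner of the serum response factor, rose 4.44-fold (2.15, SE 0.39, adjusted p = 0.00107), and Elf1 rose by 1.09. Spib, which with Spi1 is the closest relative of Spic, was the only one of these 18 called lower. It was well above background on none of the arrays of Map3k3 cells with Dox, on all 3 without Dox and on all 3 with EGFP, at least 1.92-fold and at least 2.16-fold lower (adjusted p = 8.29e-05 and 2.63e-05). In null against wild-type cells Spib differed by -0.37 and was not called, while Ets1 fell by 2.14 and Etv2 by 2.29 and Ets2 rose by 1.89.

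Among 4 measured aspartic proteases related to the pepsinogens, Napsa, which encodes napsin A, fell with Map3k3, at least 1.98-fold relative to cells without Dox (log2 difference -1.45, SE 0.42, limma adjusted p = 0.0170) and at least 2.21-fold relative to EGFP cells. Napsa rose by 1.72 in null against wild-type cells (adjusted p = 0.00366). The other 3 were not called in either Map3k3 comparison.

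In the family of alpha-2-macroglobulin 2 of 4 measured relatives of A2m were called with Map3k3, in opposite directions. Cd109, a cell surface protein of this family, read -1.48 on average in Map3k3 cells with Dox and was not measurable without Dox or with EGFP, an at least 8.50-fold and at least 6.20-fold rise (limma adjusted p = 3.18e-06 and 2.70e-06). Pzp, the pregnancy zone protein, fell 2.35-fold relative to cells without Dox (-1.23, SE 0.18, adjusted p = 0.000249) and 2.32-fold relative to EGFP cells. In null against wild-type cells the same genes moved the other way, with Pzp up by 0.99 and Cd109 down at least 14.2-fold, so that Pzp and A2m were called higher in null cells and Cd109 lower.

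The relatives of the surface proteins are given beside a share of 17.9% of all genes called either way against cells without Dox and 18.1% against EGFP cells. Of 5 measured Fc receptor genes only Fcgrt, the neonatal Fc receptor, fell with Map3k3, by 0.90 and 0.91 (limma adjusted p = 0.0280 and 0.0247). Fcer1g, the common signalling chain of Fc receptors, differed by 0.02 and -0.06 and rose 4.62-fold in null against wild-type cells (adjusted p = 0.00875). Of 13 measured adhesion receptors besides Adgrd1, 3 fell and none rose: Adgrb1 by 0.85 and 0.80, Adgrl1 by 0.69 and 0.65 and Celsr3 by 0.64 and 0.61 against cells without Dox and EGFP cells. Of 7 measured genes of the CD2 and SLAM family, none was called in either Map3k3 comparison. In null against wild-type cells Slamf9 fell at least 4.57-fold and Slamf6 at least 1.61-fold, and Cd244a rose by 0.68.

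Of 11 measured ADAMTS and ADAMTS-like genes besides Adamtsl1, 4 were called higher and 2 lower in each Map3k3 comparison. Adamts1, Adamts7 and Adamts8 rose and Adamts15 and Adamts9 fell against both controls. Adamts4 was called against cells without Dox only, and Adamts2 against EGFP cells only, where it was well above background in neither group. Adamts1, a protease that cleaves matrix proteoglycans, read -0.70 on average in Map3k3 cells with Dox and was not measurable without Dox or with EGFP, an at least 14.6-fold and at least 10.6-fold rise (limma adjusted p = 4.20e-05 and 4.60e-05). It fell at least 15.6-fold in null against wild-type cells. Adamts7 rose 2.45-fold and 2.58-fold, and Adamts15 fell at least 1.89-fold and at least 1.94-fold. None of 3 measured genes of the neuropeptide Y system was called with Map3k3, and the peptidase Dpp4 and the receptor Npy1r were lower in null than in wild-type cells, at least 5.69-fold and at least 3.28-fold. Of 4 measured Zmat relatives of Zmat4, none was called against cells without Dox and Zmat1 was called higher against EGFP cells, where it was well above background in neither group.

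**Figure D4:**
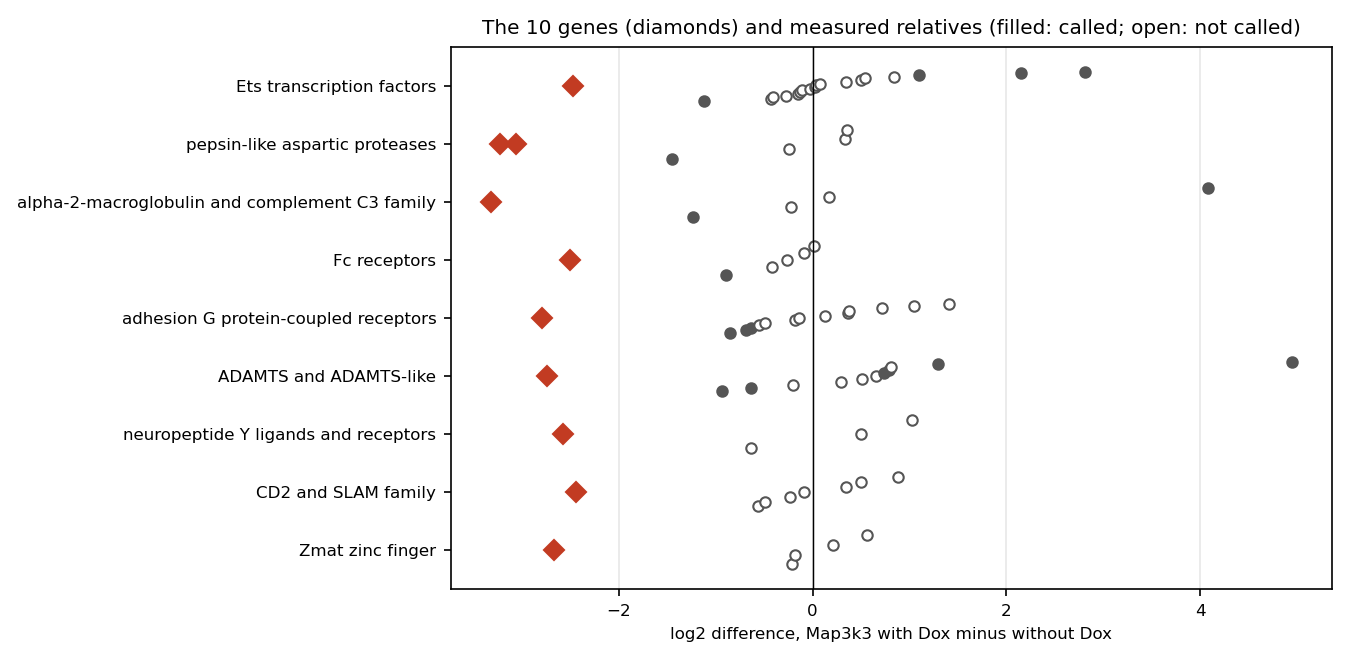
The log2 difference between Map3k3 cells with Dox and without Dox (horizontal axis) is plotted for the 10 genes (diamonds) and for measured relatives in 9 family lists (circles, filled where called). All diamonds lie below -2.4, where the genes were chosen, and the circles spread on both sides of 0, with 8 filled to the right and 9 to the left.

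Some of the 10 genes are known from blood, stomach or brain, and markers of blood and stomach cells were read beside them. Of 16 blood and immune markers, Ptprc, Cd79a, Cd8a and Hbb-bt were not well above background on any array. Their summed linear level, in units of the array's 75th percentile, was 36.0 to 45.7 in Map3k3 cells with Dox, 39.1 to 43.2 without Dox, 39.8 to 42.0 with EGFP, 37.5 to 43.0 in null cells and 23.4 to 26.0 in wild-type cells. With Map3k3, Cd34 and Vav1 rose against both controls, 57.7-fold and 2.04-fold against cells without Dox, and none of the 9 measured markers was called lower. Hba-a1 was called higher against cells without Dox but was well above background in neither group. The calls are 3 of 9 and 2 of 9 higher, where 12.3% and 12.4% of all genes were called higher. Of 10 stomach markers on the array, Gkn1, Gkn2 and Tff2 were not well above background in any group, and 2 were measured. The summed level of the 10 was 0.725 to 0.989 in Map3k3 cells with Dox, 0.551 to 0.764 without Dox, 0.613 to 0.856 with EGFP, 0.557 to 0.836 in null cells and 1.11 to 1.37 in wild-type cells. Tff1, a secreted factor of the stomach mucosa, rose at least 6.41-fold with Map3k3, the opposite direction to the pepsinogens. The other measured stomach marker, Bhlha15, differed by -0.06 against cells without Dox and 0.07 against EGFP cells and was not called. The part of other cell types in the levels of the 10 genes was not tested.

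Some genes of the stem cell state were also lower with Map3k3. Of 18 naive pluripotency genes, 5 fell and none rose against cells without Dox, and 4 fell and none rose against EGFP cells, where 5.59% and 5.67% of all genes were called lower. Fbxo15, a stem cell F-box gene, fell 2.69-fold (log2 difference -1.43, SE 0.079, limma adjusted p = 7.53e-08), Tcl1 2.34-fold and Tdh 1.86-fold. The summed level of the 6 stem cell markers was 492 to 531 in Map3k3 cells with Dox, 556 to 620 without Dox, 588 to 598 with EGFP, 628 to 639 in null cells and 425 to 466 in wild-type cells. Of these 6, Pou5f1, Sox2 and Lin28a fell by 0.60, 0.65 and 0.80 against cells without Dox. Against EGFP cells 2 of the 6 were called lower, Pou5f1 (-0.68) and Lin28a (-1.01), while Sox2 (-0.55) was not called. The part of this shift in the lower levels of the 10 genes was not tested.

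The genes whose pattern was most like that of Spic over the 15 arrays were Fbxo15 (Pearson r 0.978), Pde1b (0.974), Duox1 (0.973), Slit3 (0.971) and 1700097N02Rik (0.966). Like Spic, all 5 had lower mean levels in null than in wild-type cells, by 0.46 to 1.04. For Zmat4 they were Sapcd1 (0.995), Rad9a (0.981), Ift52 (0.976), Rsph1 (0.975) and Zfp992 (0.969), whose null and wild-type means differed by -0.01 to 0.28. The 15 arrays fall into 5 groups, so the gaps between groups enter each coefficient, which describes likeness in these arrays only.

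The nearest measured genes on either side of each of the 10, in the order of the mouse genome, were looked up. Of 20 such neighbours, 4 fell with Map3k3 against both controls in limma, 2 rose and 14 were not called, where 4.45% of all genes were called lower against both. Both neighbours of Pgc fell, Tfeb by 1.24 and 1.05 and Frs3os by 1.06 and 1.1 against cells without Dox and EGFP cells. The other 2 that fell were Sfrp1 beside Zmat4 and Saxo1 beside Adamtsl1, by 1.08 and 0.75 and by 0.73 and 0.83. On the other side of Zmat4, Tcim rose by 4.17 and 3.83, and Vwce beside Pga5 rose by 0.78 and 0.79. The neighbours of Spic, A2m, Fcgr2b, Adgrd1, Npy and Cd2 were not called.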

How the data were processed

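Array signals were read with Feature Extraction 11.5.1.1, per the file headers. The processed signal of each deposited file is an intensity from which the software had subtracted background. The deposited table of normalized values, which the authors gave as log2 values, correlated with the levels used here at 1.0 on each array. Here spots of a probe were averaged after control and outlier spots were left out, log2 was taken, and the array's 75th percentile over 55681 probes was subtracted. No spot was saturated. Symbols came from RefSeq accessions, for 28331 probes and 21368 genes. A probe passed where any group had it well above background on each of its 3 arrays, and the brightest passing probe stood for its gene.

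One limma model (version 3.58.1, R 4.3.3; Python 3.11.15 otherwise) with the 5 groups was fitted to all 14441 genes, with two-sided moderated tests and Benjamini-Hochberg adjustment. Called means adjusted p under 0.05 and at least 1.5-fold. Tested on simulated data for null against wild type over 14441 genes, it recovered 75% of 100 genes changed by 1 on the log2 scale and 93% of 100 changed by 2, with 4 false calls. The number of arrays limits the precision.

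The members and the lists of relatives and markers were chosen with earlier results of these data known. Named were all 10 genes with each probe, up to 3 called genes per list and comparison by size of change, and the 5 genes most alike. Marker genes, neighbours and further list members were chosen after their values were seen. Equal replicate numbers went together for Map3k3 with against without Dox (correlations of deviations from group means 0.168, 0.338 and 0.259) and against EGFP (0.107, 0.336 and 0.197), but not for null against wild type (-0.029, 0.007 and 0.006). Normexp was run on median signals, since the files used here hold no mean signals, and an offset of 50 was added to each corrected signal. Alternatives were other normalizations, filters, probe rules, fold minima, blocks of slide, row and number, and each array left out. Fits within 1 slide row were added after the data had been seen.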

Additional observations from a re-analysis of the deposited data

How the results depend on the processing

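No called difference of the 10 genes changed sign. In null against wild-type cells, 3 differences that were not called did. With slide row as a block, a fit that cannot separate row from genotype here, Zmat4 was at -0.15 and Adamtsl1 at -0.88. Npy was at 0.083 with the array median, 0.21 with normexp and 0.067 with quantile normalization. With 1 array left out at a time Adamtsl1 ranged from -0.52 (without array 2 of the null cells) to 0.64 and Npy from -0.63 to 0.36 (without array 1 of the null cells). With probes required to be well above background on all 15 arrays, 2 of the genes (Spic and Zmat4) were tested and 2 were called lower in each Map3k3 comparison. In null against wild-type cells 0 were then called higher and 1 lower, and 11 relatives were called against EGFP cells and 23 in null cells. Of all 11849 genes tested with that filter, 1145 were higher and 573 lower against cells without Dox. Against EGFP cells 1187 were higher and 578 lower, and in null cells 2271 and 1596. The number called lower in null cells was 1 with quantile normalization and 1 with slide row as a block, against 3 in the fit reported. Relatives called with Map3k3 numbered 9 and 9 with a 2-fold minimum, 29 against cells without Dox and 32 against EGFP cells with no fold minimum, and 7 within row 1 of slide 1 (Map3k3 with Dox 1 against the 3 arrays without Dox) and 5 within row 2 of it (Map3k3 with Dox 2 and 3 against EGFP 1 and 2). Within row 2 of slide 1, 7 of the 10 genes were called lower, where 90 of all 14441 genes were called lower. The 10 genes were chosen on these same arrays, so the count supports nothing. Row 1 of slide 1 holds only 1 array of Map3k3 cells with Dox, beside the 3 without Dox, so no calls are counted there. In that row Adamtsl1 differed by -3.73, Pgc by -2.42, Adgrd1 by -2.38 and Pga5 by -2.17. The filter tested fewer of the genes and the fits within a row used fewer arrays. The cause of these moves was not tested.

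Counts of the 10 genes called with Map3k3, here and above, describe the values on which they were chosen and support nothing. Leaving out 1 array at a time, the genes called lower numbered 9 to 10 against cells without Dox (9 without array 1 or array 3 of Map3k3 cells with Dox, or array 2 without Dox) and 10 throughout against EGFP cells, those called higher in null cells 2 to 4 and those called lower 2 to 3. Called relatives numbered 13 to 19, 14 to 22 and 34 to 38 in the same order of comparisons. In the fit reported 69 relatives were measured, and 17.9%, 18.1% and 37.9% of all genes were called either way. With the replicate number as a block, 10 genes were lower in each Map3k3 comparison, 3 were higher and 3 lower in null cells, and called relatives numbered 21, 25 and 39 against 17, 18 and 36 without it; the block changed no call of the 10 genes.

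Of the single differences, normexp background correction with its offset of 50 shrank the Map3k3 difference of all 10 genes, for A2m to -1.28 and -1.25 and for Npy to -0.82 and -1.32 against cells without Dox and EGFP cells. An added offset by itself narrows log2 differences between weak signals, and its part was not separated from that of the correction. Quantile normalization took the other Pgc probe, at -0.62 and -0.25. Averaging probes gave -1.15 and -1.24 for Cd2. Signal near background limits 8 of the 10 genes to bounds.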
